A study of Mus musculus with 6 samples.

Results

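The genes described here are the collagens, chosen as every protein-coding row of the count table whose mouse symbol is that of a collagen chain (Col, a type number, a and a chain number). The rule used names and no measured value, and it found 44 genes of 41388 rows: 11 fibrillar chains, 8 chains of basement membranes (types IV, XV and XVIII) and 25 of other types. Of the 44, 29 passed the filter on low counts and were tested among 15939 genes. Their messenger RNA was compared in livers of BALB/c mice made fibrotic with carbon tetrachloride (CCl4), a liver toxin given for 5 weeks, with pieces taken from each lobe. The AL/NP group (3 libraries) received nanogels loaded with the bisphosphonate alendronate, at 4 mg/kg alendronate, injected 2 times per week over the last 2 weeks. The control group (3 libraries) had the same CCl4 exposure and is titled untreated, although the treatment text of the labels is the same for all 6 samples. No healthy liver, nanogel without drug or free drug is among the samples, so the drug cannot be told apart from its carrier or the injections. Age and sex of the animals are not given in the sources used here, and nothing says outright that each library is a separate animal. If they are not, the p-values measure a spread that may be technical.

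Collagens are proteins of the extracellular matrix in which 3 chains wind into a triple helix. Fibrillar types, chiefly I and III, form the banded fibres of scar tissue, and in injured liver they come mainly from activated hepatic stellate cells, with portal fibroblasts as a further source. Type IV forms the sheet of basement membranes, types XV and XVIII sit in the basement membrane zone, and type XVIII is also made by hepatocytes. Type VI forms beaded filaments, and the fibril-associated types decorate the surface of fibrils.

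Library totals ranged from 30554483 to 39838428 counts. Collagens took 0.0693% to 0.130% of these, between 21290 and 47742 counts per library. Control replicate 3 stood apart before any comparison: it had the lowest scaling factor (0.809 against 0.937 to 1.13) and the highest share of mitochondrially encoded counts (26.7% against 11.96% to 19.8%). The hepatocyte markers Alb, Apoa1, Ttr, Trf, Cps1, Ass1 and Hnf4a were all present, at a summed 48794 to 78776 CPM (counts per 1e6 of the library, scaled with edgeR's TMM factors), so the tissue matched its label.

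The start regions of 3 genes on which the results turn are shown first. Col1a2 and Col3a1 varied together between libraries, and Col27a1 showed the difference with the smallest p-value. RefSeq (GRCm38.p6) gave a window for 35 of the 44 genes. The sequences below run 5′ to 3′ on the gene's strand and hold the part of the 250 bases before the RefSeq start site that no annotated exon covers. For Col1a2 this part ends 126 bases before the start site. In the GENCODE annotation Col1a2 begins at 4504814 and Col27a1 at 63214004, upstream of their windows. Both windows thus lie within the annotated genes. Capitals mark a GC box (GGGCGG, in either orientation) or a TATA box (TATAAA), and a CCAAT box was also searched; both strands were read and no match overlapped another.
Col1a2, chr6:4505370-4505492, plus strand: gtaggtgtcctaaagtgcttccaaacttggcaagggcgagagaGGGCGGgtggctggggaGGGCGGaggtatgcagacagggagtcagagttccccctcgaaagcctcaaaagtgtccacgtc
Col3a1, chr1:45311288-45311537, plus strand: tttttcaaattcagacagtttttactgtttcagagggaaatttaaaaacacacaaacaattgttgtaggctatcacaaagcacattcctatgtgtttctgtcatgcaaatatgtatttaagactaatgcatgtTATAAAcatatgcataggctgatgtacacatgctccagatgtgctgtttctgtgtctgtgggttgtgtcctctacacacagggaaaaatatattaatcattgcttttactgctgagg
Col27a1, chr4:63215162-63215411, plus strand: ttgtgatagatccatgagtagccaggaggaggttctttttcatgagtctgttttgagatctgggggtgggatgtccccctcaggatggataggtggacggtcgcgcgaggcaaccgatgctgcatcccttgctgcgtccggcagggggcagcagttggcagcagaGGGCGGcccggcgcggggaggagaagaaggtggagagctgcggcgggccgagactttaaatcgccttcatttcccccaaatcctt
The printed part of Col1a2 held 2 GC boxes, that of Col27a1 held 1, and that of Col3a1 held 1 TATAAA. Over full windows of 250 bases, GGGCGG was found in 22 of 38 collagen windows (57.9%) and in 32.7% of all 32817 RefSeq windows. CCAAT was found in 34.2% and 33.8%, and TATAAA in 13.2% and 12.4%. These are matches of letters, not tested binding sites.

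With edgeR, no collagen gene was called between AL/NP and control. Its quasi-likelihood test gave 0 of 29 tested collagens an adjusted p under 0.05, against 13 of all genes tested (0.0816%). The lowest adjusted p among collagens was 0.151. At an unadjusted p under 0.05 there were 3 collagens, Col27a1, Col4a5 and Col17a1, all lower with AL/NP and none higher, where 19.6% of all genes tested had such a p (10.3% lower and 9.37% higher). limma-voom called 0 (0.0502% of all genes tested) and had 3 at an unadjusted p under 0.05 (19.8%). DESeq2 called 1, Col27a1, where it called 5.07% of the genes it adjusted. In 3 of the 29 (10.3%) the groups did not overlap, against 29.5% of all genes tested. Whether these shares differ was not tested. Col17a1, which counts in both sets of 3, passed the filter on low counts through its controls alone, which favours a lower value with AL/NP. Of the 29, 20 had a log2 fold change below 0 and 9 above, with a median of -0.13, beside -0.00025 for all genes tested, of which 50.0% were below 0. The collagen median was 0.16 without control replicate 3. Scaled by library totals alone it was 0.086, and all genes then had a median of 0.13. In bulk tissue, fewer cells of a type and less RNA per cell cannot be told apart.

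**Figure D1:**
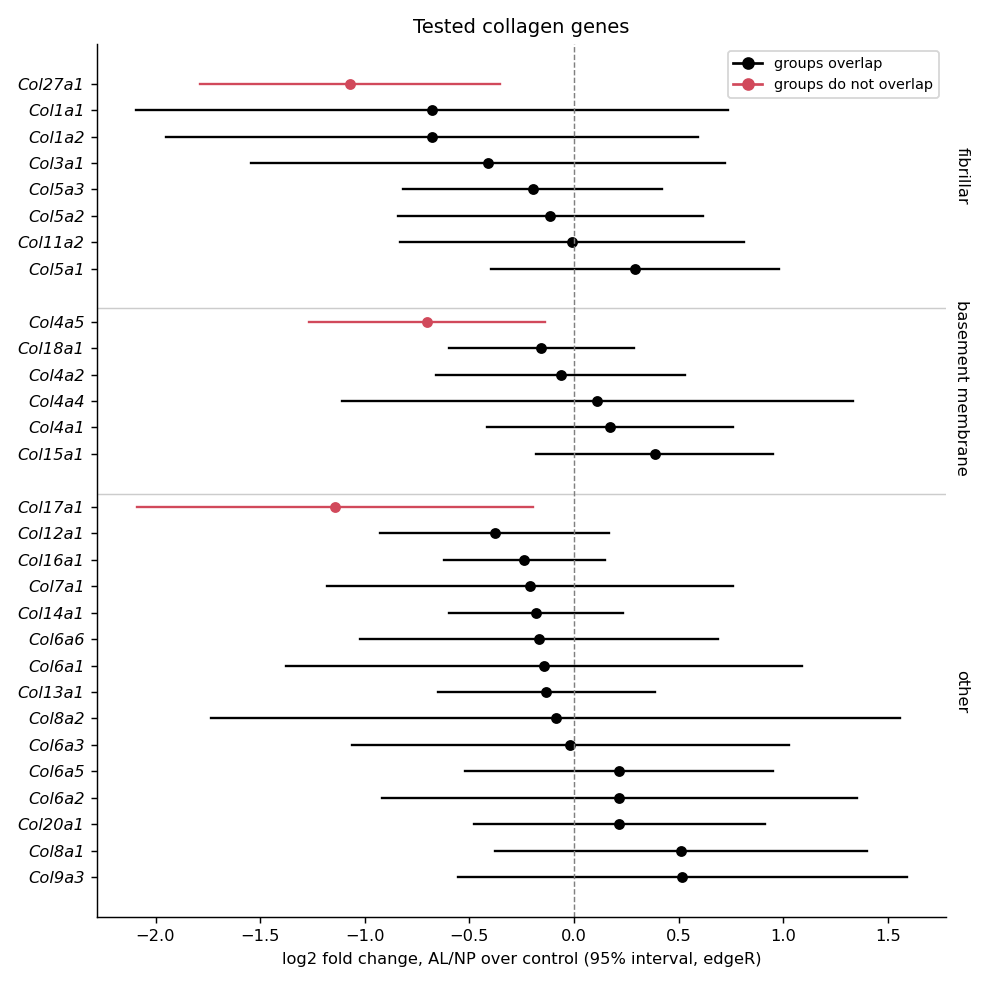
Log2 fold change of AL/NP over control with its 95% interval (edgeR) for the 29 tested collagens, grouped into fibrillar, basement membrane and other types. Red marks the 3 genes whose groups did not overlap, Col27a1, Col4a5 and Col17a1; the intervals of the other 26 genes include 0.

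The chains of types I and III, the main collagens of scar, ranged more widely within each group than their group means differed. Col1a1 (chromosome 11, 94936224 to 94953042) encodes the alpha-1 chain of type I, and it measured 38.6, 57.2 and 126.6 CPM in AL/NP replicates 1 to 3 and 86.2, 51.7 and 219 CPM in controls 1 to 3. Replicate 3 was the highest library in each group, and the groups overlapped. The log2 fold change was -0.68 (SE 0.60, 95% interval -2.09 to 0.73, adjusted p = 0.542, edgeR). Col1a2 (chromosome 6, 4504814 to 4541544), the alpha-2 chain, measured 40.7, 48.6 and 109 CPM with AL/NP and 76.3, 49.9 and 192 CPM in controls. Its libraries stood in nearly the order of Col1a1, again with both replicates 3 on top, and its log2 fold change was -0.68 (SE 0.55, adjusted p = 0.502). Col3a1 (chromosome 1, 45311538 to 45349706), the chain of type III, measured 52.2, 64.9 and 146 CPM with AL/NP and 99.5, 62.3 and 189 CPM in controls, with a log2 fold change of -0.41 (SE 0.49, adjusted p = 0.655). Without control replicate 3 these 3 values were 0.10, 0.066 and 0.12, so the sign of all 3 rested on that library.

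Col27a1 (chromosome 4, 63214004 to 63334991), the chain of a fibrillar collagen known from cartilage, was the fibrillar gene furthest from 0. It measured 29.8, 53.6 and 38.1 CPM in AL/NP replicates 1 to 3 and 66.6, 127 and 61.4 CPM in controls 1 to 3. Every AL/NP library was below every control, as in 15.0% of all genes tested, and control replicate 2 was the highest. The log2 fold change was -1.07 (SE 0.32, 95% interval -1.79 to -0.35), with an adjusted p of 0.151 in edgeR and 0.0274 in DESeq2, so the call depended on the test. It was -0.67 without control replicate 2 and -1.26 without control replicate 3, and it stayed below 0 under every alternative run, between -1.33 and -0.67, with an adjusted p between 0.0274 and 0.343.

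Col27a1 lies beside the orosomucoid genes of the acute phase response, which the plot of its neighbourhood shows. Orm1 begins 9568 bases beyond its end, and Orm2, Orm3 and the pseudogene Gm11212 follow. Orm1 had a log2 fold change of 1.07 (SE 0.18, adjusted p = 0.0783, edgeR), Orm3 of 1.57 (SE 0.19, adjusted p = 0.0493) and Orm2 of 1.78 (SE 0.24, adjusted p = 0.0493). Orm2 and Orm3 thus rose, just inside the threshold, and kept that call in 7 of the 16 alternatives each, with adjusted p up to 0.194. These 3 share near-identical sequence, so the split of reads among them is uncertain. On the other side, Ambp was at 0.52 (SE 0.17, adjusted p = 0.179) and Kif12 at 0.37 (SE 0.27, adjusted p = 0.457). Of the 8 tested genes within 60000 bases, Col27a1 included, Col27a1 was the one with a value below 0.

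**Figure D2:**
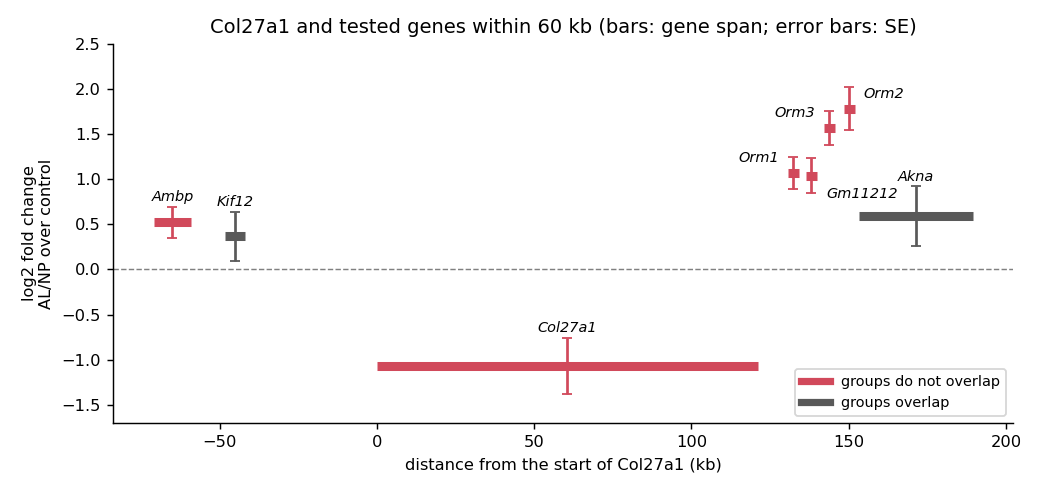
Log2 fold change of AL/NP over control (vertical axis, error bars SE) for tested genes within 60 kb of Col27a1, placed by distance from its start in kb (horizontal axis). Horizontal bars span each gene, and red marks genes whose groups did not overlap. Col27a1 lies at -1.07 and Orm1, Gm11212, Orm3 and Orm2 lie between 1.04 and 1.78.

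The remaining fibrillar chains showed no difference beyond the spread of their libraries. Type V, whose chains nucleate type I fibrils, had Col5a1 at 14.7, 17.4 and 29.3 CPM with AL/NP and 15.2, 12.2 and 22.95 CPM in controls, a log2 fold change of 0.29 (SE 0.30, adjusted p = 0.606). Col5a2 measured 9.14, 12.4 and 19.5 CPM with AL/NP and 14.1, 10.03 and 20.3 CPM in controls, and was at -0.11 (SE 0.32, adjusted p = 0.865). Both had replicate 3 as the highest library of each group, like the chains of types I and III. Col5a3 measured 22.3, 23.7 and 19.5 CPM with AL/NP and 16.5, 21.5 and 37.2 CPM in controls, with control replicate 3 on top alone. Col11a2, a minor chain of cartilage fibrils, measured 7.65, 4.73 and 3.08 CPM with AL/NP and 3.62, 4.92 and 6.99 CPM in controls. Its order in the AL/NP group was the opposite of that of type I, with replicate 1 highest. Over the 8 tested fibrillar genes the median log2 fold change was -0.30, with 7 below 0, and it was 0.15 without control replicate 3 and -0.73 without AL/NP replicate 3.

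**Figure D3:**
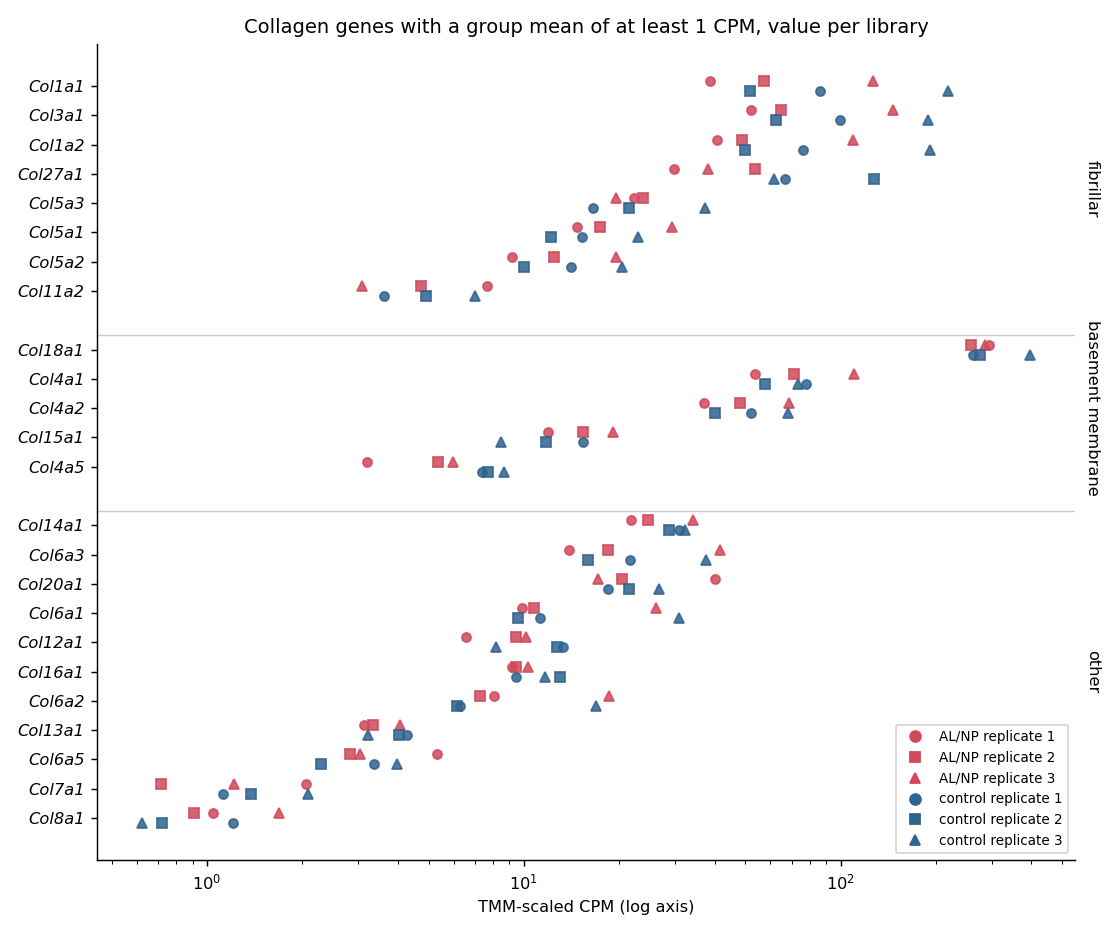
TMM-scaled CPM (log axis) of the 24 collagen genes with a group mean of at least 1 CPM, 1 row per gene, with AL/NP in red and control in blue and the replicate number given by the marker. For Col1a1, Col1a2, Col3a1, Col6a1, Col6a2 and Col6a3 the triangle (replicate 3) lies furthest right within each group; for Col27a1 and Col4a5 all red points lie left of all blue ones.

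Replicate 3 was the highest library in both groups at once in 13 of the 29 tested collagens, against 16.7% of all genes tested. The 13 included 5 fibrillar genes (Col1a1, Col1a2, Col3a1, Col5a1 and Col5a2), the 3 main chains of type VI (Col6a1, Col6a2 and Col6a3), and Col4a2, Col4a4, Col4a5, Col8a2 and Col14a1. AL/NP replicate 1 was the lowest of all 6 libraries in 13 of the 29, against 27.5% of all genes tested, and control replicate 3 the highest in 11 of the 29, against 28.2%. Markers of collagen-making cells were set beside this, as summed CPM per library. Myofibroblast markers, mainly Tagln and Acta2, summed to 90.4, 126 and 183 CPM in AL/NP replicates 1 to 3. In controls they summed to 167, 125 and 170 CPM. Of the 6 tested myofibroblast markers, 5 had a log2 fold change below 0 and 1, Timp1, above. The groups did not overlap in Timp1 (0.87, SE 0.30, adjusted p = 0.188, edgeR) and in Myl9 (-0.56, SE 0.19, adjusted p = 0.187, edgeR). Of all genes tested, 14.5% were higher and 15.0% lower without overlap. Stellate cell markers summed to 202 to 248 CPM with AL/NP and 186 to 251 CPM in controls. A large part of this sum was Ecm1, at 98.5 to 128 CPM with AL/NP and 66.3 to 92.0 CPM in controls. Of the 10 stellate cell markers, 6 had a log2 fold change below 0 and 4 above. Portal fibroblast markers ranged from 25.0 to 43.8 CPM and vascular smooth muscle markers from 17.6 to 28.2 CPM. Mesothelial markers summed to 8.01 CPM in control replicate 3 and to 2.32 to 4.06 CPM in the other 5 libraries. No member of these lists was at 0 in all libraries, and none was called by edgeR. DESeq2 called 1, the portal fibroblast marker Pi16, where it called 5.07% of the genes it adjusted. Pi16 measured 2.33, 3.33 and 3.22 CPM with AL/NP and 1.03, 1.05 and 1.40 CPM in controls. Its log2 fold change was 1.35 (SE 0.28, adjusted p = 0.103 in edgeR and 0.00196 in DESeq2). Of the 8 tested portal fibroblast markers, 5 were above 0 and 3 below. Among the latter, Entpd2 was lower without overlap (-0.58, SE 0.23, adjusted p = 0.227, edgeR). The part of such cells in the collagen levels was not tested.

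Per length of transcript, Col18a1 was the most abundant single collagen message in every library. The sum of types I and III exceeded it in AL/NP replicate 3 and control replicate 3 and in no other library. Col18a1 (chromosome 10, 77052178 to 77166548), whose protein releases endostatin, measured 294, 259 and 285 CPM with AL/NP and 262, 274 and 397 CPM in controls. Apart from control replicate 3 its libraries lay close together, and its log2 fold change was -0.16 (SE 0.19, adjusted p = 0.672). Expressed per kilobase of the principal transcript (RPKM, CPM over length), its mean level was 58.3 with AL/NP and 64.9 in controls, followed, in the order of the mean over all 6 libraries, by Col3a1 (15.8 and 20.999), Col1a1 (12.5 and 20.04), Col1a2 (12.4 and 19.8), Col4a1 (11.8 and 10.5), Col27a1 (5.32 and 11.2) and Col4a2 (7.95 and 8.31). Within groups the order differed: Col27a1 was above Col4a1 in controls and below Col4a2 with AL/NP. The ranges of Col3a1, Col1a1 and Col1a2 over libraries overlapped.

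For the 2 main chains of basement membranes no difference beyond the spread of libraries was found. Col4a1 (chromosome 8, 11198423 to 11312826) measured 53.6, 71.4 and 110 CPM with AL/NP and 78.0, 57.5 and 73.4 CPM in controls, a log2 fold change of 0.17 (SE 0.26, 95% interval -0.42 to 0.76, adjusted p = 0.732). Its partner Col4a2 (chromosome 8, 11312805 to 11449287) measured 37.0, 48.2 and 68.6 CPM with AL/NP and 52.2, 40.2 and 68.4 CPM in controls, and was at -0.064 (SE 0.26, adjusted p = 0.909). AL/NP replicate 1 was the lowest and AL/NP replicate 3 the highest library for both. The genes stand head to head and their exons overlap by 22 bases, over which reads could be counted for either. Col15a1, a chain of vessel basement membrane zones, measured 11.9, 15.4 and 19.1 CPM with AL/NP and 15.3, 11.8 and 8.45 CPM in controls, and was at 0.38 (SE 0.25, adjusted p = 0.401). It had control replicate 3 lowest, the library in which Col1a1, Col1a2 and Col3a1 were highest.

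Col4a5 (chromosome X, 141475385 to 141689234), the alpha-5 chain of type IV, was lower with AL/NP in all libraries. It measured 3.20, 5.34 and 5.98 CPM with AL/NP and 7.38, 7.68 and 8.67 CPM in controls. The groups did not overlap, AL/NP replicate 1 was the lowest, and the controls lay close together. The log2 fold change was -0.71 (SE 0.25, 95% interval -1.27 to -0.14), with an adjusted p of 0.194 in edgeR and 0.109 in DESeq2, so it did not pass. Its value ranged from -0.88 to -0.48 with libraries left out in turn. The other chains of type IV were scarce. Col4a4 stayed between 0.201 and 0.714 CPM, and Col4a3 and Col4a6 were too low to test. Over the 6 tested basement membrane genes the median log2 fold change was 0.024, with 3 below 0 and 3 above. That median took values from -0.17 to 0.15 with libraries left out in turn.

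Among the 15 tested collagens of other types, replicate 3 was highest in both groups in 5, and edgeR and DESeq2 called 0. The type VI chains of beaded filaments had Col6a1 at 9.84, 10.8 and 26.2 CPM with AL/NP and 11.3, 9.61 and 31.0 CPM in controls, and Col6a3 at 13.9, 18.4 and 41.6 CPM with AL/NP and 21.6, 15.9 and 37.4 CPM in controls. Replicate 3 was well above the other libraries in both groups. Col6a1 was at -0.14 (SE 0.53, adjusted p = 0.899), Col6a2 at 0.22 (SE 0.49, adjusted p = 0.833) and Col6a3 at -0.018 (SE 0.45, adjusted p = 0.986). Among fibril-associated collagens, Col14a1 ranged from 21.8 to 34.2 CPM, Col12a1 from 6.57 to 13.2 CPM and Col16a1 from 9.18 to 13.0 CPM over all libraries, with log2 fold changes of -0.18, -0.38 and -0.24 (adjusted p = 0.585, 0.392 and 0.443, edgeR). Col20a1 measured 40.005, 20.4 and 17.1 CPM with AL/NP and 18.4, 21.5 and 26.7 CPM in controls. AL/NP replicate 1 was the highest, and the log2 fold change of 0.22 (SE 0.31) was -0.24 without it. Its exons share 79 bases with a gene on the same strand, BX649560.1, which had 23.9 counts per 100 of Col20a1.

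Col17a1 (chromosome 19, 47646344 to 47692094), a transmembrane collagen of epithelia, was the third gene whose groups did not overlap. It had 5, 6 and 8 counts in the AL/NP libraries and 12, 19 and 13 in controls, or 0.165 to 0.232 and 0.345 to 0.525 CPM. The level is close to that of 3 counts, which was 0.0826 to 0.104 CPM. It had at least 10 counts, the minimum of the filter, in every control and in no AL/NP library. It was thus tested only because its controls were high, so its direction and lack of overlap cannot be read as a result. Its log2 fold change was -1.14 (SE 0.42, adjusted p = 0.201 in edgeR and 0.324 in DESeq2). Over the 15 tested genes of other types the median was -0.13, with 10 below 0, and it was 0.33 without control replicate 3 and 0.063 without AL/NP replicate 2. The other low members had intervals that included 0. Col6a5, Col7a1, Col8a1 and Col13a1 had log2 fold changes of 0.22, -0.21, 0.51 and -0.13, and Col6a6, Col8a2 and Col9a3, all under 1 CPM in group means, had -0.17, -0.089 and 0.52. None of these 7 had an unadjusted p under 0.05. The 15 untested collagens had between 3 and 55 counts over all 6 libraries and at most 12 in a single one. They were Col2a1, Col4a3, Col4a6, Col6a4, Col9a1, Col9a2, Col10a1, Col11a1, Col19a1, Col22a1, Col23a1, Col24a1, Col25a1, Col26a1 and Col28a1, and differences in them were not detectable at this depth.

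Summed over all 44 genes, collagen message reached 137, 142 and 205 RPKM in AL/NP replicates 1 to 3 and 163, 150.1 and 268 RPKM in controls. The groups overlapped, with means of 161 ± 38.3 and 194 ± 64.7 RPKM (SD, n = 3 each). On the CPM scale the log2 ratio of the group means was -0.28, and it was 0.014 without control replicate 3, -0.50 without AL/NP replicate 3 and -0.084 when scaled by library totals alone. Types I and III varied widely between libraries. They summed to 23.5, 30.4 and 68.1 RPKM with AL/NP and to 46.7, 29.2 and 107 RPKM in controls. Fibrillar genes as a whole took 26.1%, 32.5% and 40.6% of the summed collagen level with AL/NP and 38.5%, 35.6% and 47.8% in controls. Basement membrane genes took 57.2%, 53.6% and 44.5% with AL/NP and 48.3%, 50.4% and 40.2% in controls. The shares of both classes overlapped between the groups. Of all shares compared, only that of type V chains did not overlap. It was 4.97%, 5.51% and 4.68% with AL/NP and 4.08%, 4.31% and 4.43% in controls. The summed level of these chains did overlap, with means of 8.07 RPKM with AL/NP and 8.33 RPKM in controls. Whether the share differed was not tested.

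**Figure D4:**
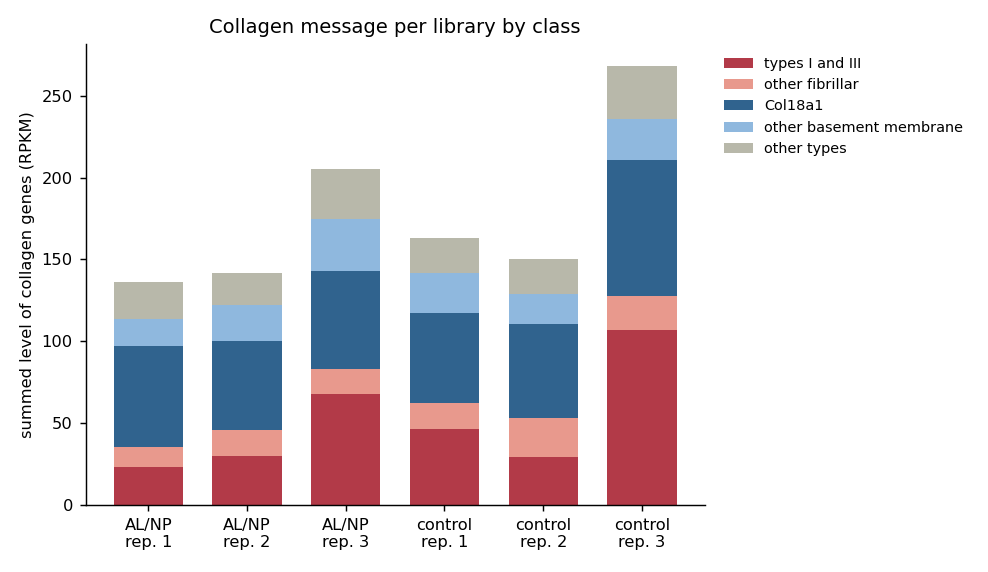
Summed level of collagen genes per library in RPKM (vertical axis), split into types I and III, other fibrillar genes, Col18a1, other basement membrane genes and other types. Control replicate 3 is highest at 268 RPKM and AL/NP replicate 3 next at 205; the segment of types I and III differs most between libraries.

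Pairs of chains, of the same collagen type or, for Col1a1 and Col3a1, of the 2 types that share scar fibrils, were compared as ratios within each library, which removes the library's overall collagen level. Type I is built mostly from alpha-1 and alpha-2 chains, and the per-length ratio of Col1a1 to Col1a2 was 0.856, 1.06 and 1.04 with AL/NP and 1.02, 0.934 and 1.03 in controls. With the union of all annotated exons as length, a choice added after the data were seen, the same ratio averaged 2.07 ± 0.239 and 2.09 ± 0.109 (SD, n = 3 each). The absolute ratio therefore depends on the length used. The comparison of groups cannot depend on it, because a change of length scales the ratio of every library alike. Col4a1 over Col4a2 was 1.41, 1.44 and 1.56 with AL/NP and 1.46, 1.39 and 1.05 in controls, so control replicate 3 had relatively less Col4a1. In these ratios, and in Col1a1 over Col3a1 and Col6a3 over Col6a1, the groups overlapped.

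The groups did not overlap in the other 3 ratios. Col5a1 over Col5a2 was 1.27, 1.11 and 1.18 with AL/NP and 0.849, 0.957 and 0.889 in controls. Col6a1 over Col6a2 was 1.17, 1.43 and 1.36 with AL/NP and 1.72, 1.51 and 1.77 in controls. Col4a5 over Col4a1 was 0.0604, 0.0757 and 0.0550 with AL/NP and 0.0958, 0.135 and 0.120 in controls. The first was thus higher and the other two lower in every AL/NP library. In a two-sided exact permutation test each had p = 0.10, and 0.233 after adjustment over the 7 ratios compared, which were chosen with the data in view. This test cannot go below 0.10 with 3 against 3 libraries, so it could not pass 0.05 for any ratio.

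**Figure D5:**
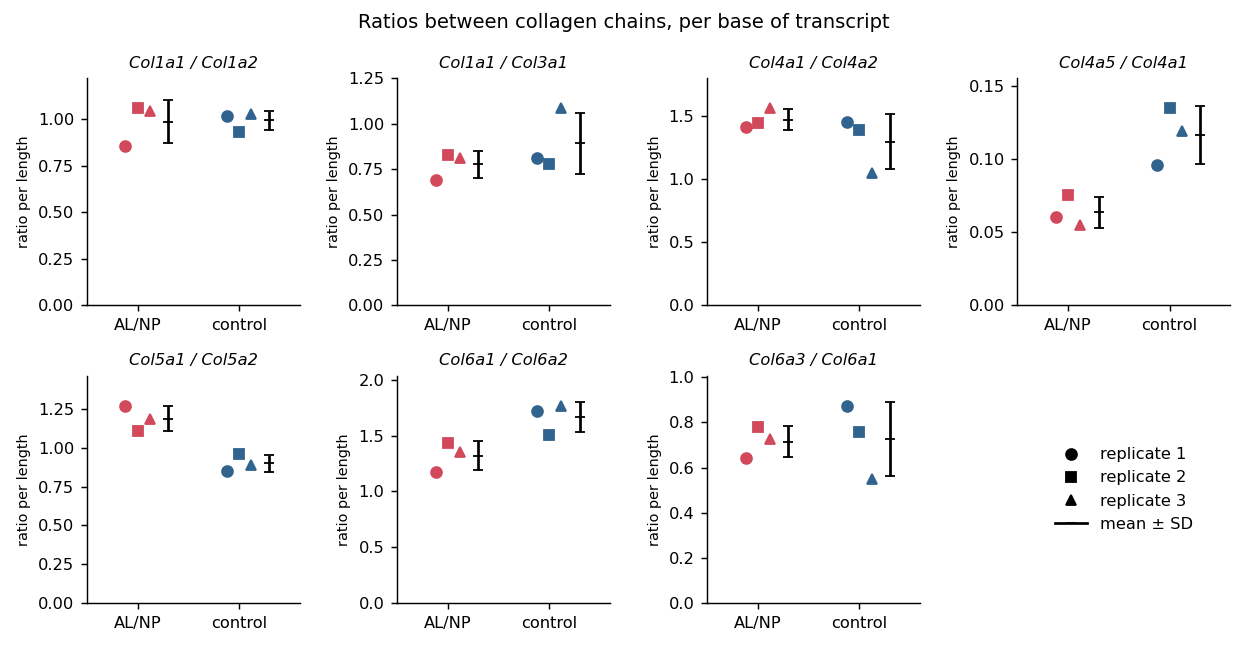
Ratios of collagen chains per base of principal transcript (vertical axes) in each library of AL/NP (red) and control (blue), with the mean and SD in black. Points of the groups do not overlap for Col5a1 over Col5a2, Col6a1 over Col6a2 and Col4a5 over Col4a1.

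Of the genes that act on collagen or sit beside it in the matrix, in 5 pathway lists, edgeR called 0 and DESeq2 called P4ha1, Lamb3 and Lamc3. Among 20 tested genes of collagen synthesis and folding, edgeR called 0, with 3 at an unadjusted p under 0.05 and all 3 higher with AL/NP (9.37% of all genes tested were higher at that p), 15 values above 0 and a median of 0.18. The smallest p-values were those of P4ha1, a subunit of prolyl 4-hydroxylase, at 0.62 (SE 0.17, adjusted p = 0.144), Plod1, a lysyl hydroxylase, at 0.41 (SE 0.14, adjusted p = 0.192), and P3h1, a prolyl 3-hydroxylase, at 0.37 (SE 0.14, adjusted p = 0.214). P4ha1 measured 25.8, 20.1 and 29.2 CPM with AL/NP and 17.3, 16.0 and 15.5 CPM in controls, and DESeq2 called it (adjusted p = 0.0489), as it did 5.07% of the genes it adjusted. Groups did not overlap in 7 of the 20 genes, each higher with AL/NP, against 14.5% of all genes tested in that direction.

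Among 12 tested genes of propeptide processing and cross-linking, 9 values were below 0, the median was -0.21 and 0 had an unadjusted p under 0.05. DESeq2 called none of them. Pcolce, which enhances removal of the C-propeptide, was at -0.57 (SE 0.34, adjusted p = 0.360, edgeR) and measured 26.0 CPM in control replicate 3 against 8.86 to 14.2 CPM elsewhere. The cross-linking oxidases Loxl3 and Loxl4 were at -0.36 and 0.50 (adjusted p = 0.545 and 0.526). Control replicate 3 was the highest library in 8 of these 12 genes. Among 9 tested collagen receptors and uptake genes, edgeR called 0 and 1 had an unadjusted p under 0.05, against 19.6% of all genes tested. That gene was Lair1, an inhibitory collagen receptor of leukocytes, at 1.04 (SE 0.33, adjusted p = 0.169 in edgeR and 0.0503 in DESeq2). It measured 2.43, 3.36 and 4.73 CPM with AL/NP and 1.58, 1.298 and 2.24 CPM in controls. Macrophage markers summed to 278 to 352 CPM with AL/NP and 158 to 226.5 CPM in controls. A large part of this sum was Mpeg1, at 131 to 154 CPM with AL/NP and 53.8 to 72.1 CPM in controls. Of the 7 macrophage markers, 6 had a log2 fold change above 0 and 1, Clec4f, below (-0.20). The part of such cells in the value of Lair1 was not tested. The integrin chains Itga10 and Itga1 were at 0.47 and -0.19 (adjusted p = 0.407 and 0.537).

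Proteins that bind fibrils gave 3 of 16 tested genes with an unadjusted p under 0.05 and a value above 0, and 1 below 0 (9.37% and 10.3% of all genes tested), with none called by edgeR or DESeq2. Dcn, decorin, measured 102, 103 and 155 CPM with AL/NP and 86.1, 78.2 and 86.8 CPM in controls (log2 fold change 0.52, SE 0.19, adjusted p = 0.204, edgeR). Bgn, biglycan, was at 0.57 (SE 0.23, adjusted p = 0.228), and Fn1, fibronectin, at 0.52 (SE 0.21, adjusted p = 0.229). The groups did not overlap in 5 of the 16 with AL/NP higher, these 3 with Prelp and Vtn, and in 1 with AL/NP lower, Ogn. Of all genes tested, 14.5% and 15.0% did so. Among 16 other basement membrane components, edgeR called 0, with 2 higher at an unadjusted p under 0.05, against 9.37% of all genes tested. The groups did not overlap in 3 with AL/NP higher (14.5% of all genes tested) and in 2 with AL/NP lower (15.0%). The 2 with the smallest p-values were the laminin chains Lamc3 at 1.45 (SE 0.45, adjusted p = 0.164) and Lamb3 at 1.12 (SE 0.38, adjusted p = 0.186), both of which DESeq2 called (5.07% of the genes it adjusted). Lamc3 was highest in AL/NP replicate 1, where it measured 5.56 CPM. It was at 2.504 and 1.89 CPM in AL/NP replicates 2 and 3, and at 0.804 to 1.63 CPM in controls. Lama4 was at -0.53 (SE 0.23, adjusted p = 0.255).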

How the data were processed

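RNA of fresh frozen liver pieces was sequenced as stranded, polyadenylated libraries in paired ends, per the labels' protocols. The deposited table holds raw read counts per Ensembl gene. The authors' tools, per the submitters' processing notes, were STAR 2.6.1a, featureCounts and DESeq2 1.26.0, with the build GRCm38. Strand setting, annotation release and handling of reads with several matches are not given in the sources used here, so overlapping genes may share reads. Of 41388 rows, 40254 matched a symbol; positions, types and lengths came from GENCODE M21 (GRCm38).

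Groups of 3 libraries were compared with edgeR 4.0.16 in R 4.3.3 (quasi-likelihood test, TMM scaling, robust estimation, filterByExpr with a minimum count of 10), with Benjamini-Hochberg adjustment over 15939 genes at 0.05. SE is the absolute log2 fold change over the square root of F. RPKM is CPM per kilobase of the longest APPRIS principal transcript. DESeq2 1.42.0 and limma 3.58.1 (voom) were alternatives, with other scalings, filters, a replicate block and each library left out. The fit was tested on simulated counts. Values per library are given for collagens of at least 1 CPM in a group mean, and of each pathway list the 3 genes with the smallest p-value. Members, classes and lists were chosen with earlier results of these data known. No pair of libraries was closer than a chi-square of 30.6 per degree of freedom, so none was taken as a duplicate. Intervals and the level of 3 counts cover counting error or the spread of these libraries only.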

Additional observations from a re-analysis of the deposited data

How the results depend on the processing

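The count of collagen genes called was 0 in 15 of 16 alternatives and 1 (Col27a1) with DESeq2. The replicate number as a block also gave 0 collagens and 23 genes in all. At an unadjusted p under 0.05 (edgeR) it had 5 of 29 collagens, against 3 in the main fit. Of all 15939 genes tested, 3129 had such a p with the block and 3128 in the main fit. Over all genes together, deviations of same-numbered libraries correlated at -0.055, 0.043 and 0.075. Of the 6 libraries, 2 correlated best with their own number. The labels give no batch, and whether same-numbered samples shared one was not tested.

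The count of changed genes was 13. It was 0 when scaled by library totals alone, with at least 50 counts in 3 libraries and without robust estimation, 8 with limma-voom, 747 with no filter beyond 1 count, 844 with DESeq2, and 0 to 4 with libraries left out in turn; the cause was not tested. With libraries left out, the collagen median ranged from -0.29 to 0.16, the fibrillar median from -0.73 to 0.15, the median of other types from -0.27 to 0.33 and the summed level from -0.50 to 0.014 (log2). Scaled by library totals alone, the median of other types was 0.11 and the summed level -0.084, beside 0.13 for all genes. The summed level has no value of its own under the replicate block, limma-voom, DESeq2 or the fit that is not robust, and Col8a1 did not pass the filter of 50 counts.

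Of the 24 genes given per library, 8 kept their sign under all 16 alternatives and 16 did not. Scaled by library totals alone, the sign turned for Col11a2 (0.13), Col18a1 (0.0064), Col4a2 (0.12), Col5a2 (0.086), Col6a1 (0.11) and Col6a3 (0.21). Col11a2 was 0.0046 with DESeq2 size factors, 0.0071 without the 10 most abundant genes and 0.0055 with DESeq2. With libraries left out, log2 fold changes ranged from -1.31 to 0.10 for Col1a1, -1.25 to 0.066 for Col1a2, -0.996 to 0.12 for Col3a1, -0.061 to 0.58 for Col5a1, -0.46 to 0.18 for Col5a2, -0.43 to 0.20 for Col5a3 and -0.40 to 0.26 for Col11a2. They ranged from -0.16 to 0.38 for Col4a1, -0.33 to 0.15 for Col4a2, -0.27 to 0.056 for Col18a1, -0.74 to 0.58 for Col6a1, -0.35 to 0.86 for Col6a2, -0.63 to 0.39 for Col6a3, -0.12 to 0.39 for Col6a5, -0.66 to 0.094 for Col7a1 and -0.24 to 0.44 for Col20a1.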

Other observations

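Among the untested collagens, Col4a3, a chain that assembles with those of Col4a4 and Col4a5, had 3, 4 and 7 counts in AL/NP replicates 1 to 3 and 11, 12 and 9 in controls 1 to 3. The groups did not overlap, as in Col4a5, while Col4a4 had 14, 10 and 19 counts with AL/NP and 7, 11 and 23 in controls. This gene was singled out after its values were seen. The long noncoding gene C430014B12Rik lies antisense to it over 563 bases of exon, with 252 counts for every 100 of Col4a3, so its counts are uncertain.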
